A study of Arabidopsis thaliana with 24 samples.

Results

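The genes described here encode the machinery of secondary small interfering RNAs (siRNAs) in *Arabidopsis thaliana*. They were chosen by identifier: *RDR6* (AT3G49500), *SGS3* (AT5G23570), *SDE5* (AT3G15390), *RDR1* (AT1G14790), *DCL4* (AT5G20320), *DRB4* (AT3G62800), *DCL2* (AT3G03300), *AGO1* (AT1G48410), *AGO7* (AT1G69440) and *AGO2* (AT1G31280). These were 10 of the 33331 gene identifiers counted, and all 10 had enough reads to be among the 22089 genes tested. RNA had been sequenced from seedlings of 8 genotypes with 3 replicate libraries each. The suppressor lines, which are S1, S2, S4, S5 and S7 together with S8, were homozygous *tt19-8* plants mutagenised with ethyl methanesulfonate and selected because pigment returned. *tt19-8* itself carries a T-DNA insertion in *TT19*, which encodes a glutathione S-transferase needed for anthocyanin accumulation, and Col-0 is the wild type. All lines were in the Col-0 background, and the insertion was shared by the suppressor lines and *tt19-8* but not by Col-0. All seedlings came from 4 days of shaking under anthocyanin induction (AIC), which the labels give as 3% sucrose and light for 24 h per day. The lesions in *RDR6* are stop codons in S1, S8 and S2 and an amino acid change in S4. The lesion of S5 is at a splice site of *SGS3*, and that of S7 at one of *DCL4*. *SGS3* and *DCL4* were thus each represented by 1 line, and a line from chemical mutagenesis can hold changes other than the one named. The labels do not say whether replicates came from separate cultures, so the p-values measure the spread between these libraries, which may be technical.

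In this pathway an Argonaute protein guided by a microRNA cuts an RNA, and a fragment of it becomes the template for new small RNAs. SGS3 binds and protects the fragment, SDE5 is thought to help in its handling, and the RNA-dependent RNA polymerase RDR6 copies it into double-stranded RNA. RDR1 is a related polymerase best known from virus-infected plants. DCL4, with its double-stranded RNA binding partner DRB4, dices the double strand into the phased siRNAs known as trans-acting siRNAs, and DCL2 can process the same kind of substrate into siRNAs of another length. AGO1 carries most microRNAs and trans-acting siRNAs, AGO7 carries miR390 to the *TAS3* precursor, and AGO2 carries small RNAs that begin with adenosine and acts against viruses. *AGO1*, *AGO2* and *DCL1* mRNAs are themselves known microRNA targets, of miR168, miR403 and miR162. The question asked of these data was how the transcripts of the machinery varied over the genotypes, and whether a line with a lesion in one component differed in the transcripts of the others.

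The lesions lie at known places, and the reference sequence around each is shown because the transcript level of *RDR6* differed among lines whose lesions fall in the same gene. Sequences are from the RefSeq genome TAIR10.1, on the strand of the gene, with the altered codon in capitals. *RDR6* lies on the minus strand of chromosome 3 with 3 exons and a coding sequence of 1196 codons that holds 1 exon junction.
S1, glutamine codon 293, chr3:18352315-18352341, coding exon: atgcggagggtgCAAgaggaacgtgtg
S8, tryptophan codon 299, chr3:18352297-18352323, coding exon: gaacgtgtgaggTGGcctccccgtatc
S4, glycine codon 664, chr3:18351202-18351228, coding exon: aggtttcaacctGGGttcttaaatcgg
S2, glutamine codon 1055, chr3:18349607-18349633, coding exon: ggtcttcttgggCAAtacaaggtgcag
The stop codons of S1 and S8 lie 6 codons apart, within the stretch gtgCAAgaggaacgtgtgaggTGGcct, at 24.5% and 25% of the protein. They are 1839 and 1821 bases before the coding exon junction. The altered glycine codon of S4 is at 55.5% of the protein, 726 bases before the junction. The stop codon of S2 is at 88.2% of the protein and 447 bases after that junction, in the last coding exon.

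In the other mutated genes the lesion lies at the edge of an intron, and the dinucleotide of the splice site is in capitals.
S5, *SGS3*, acceptor of intron 3, chr5:7945395-7945418, plus strand: ggtggtttgaAGatggatgcacac
S7, *DCL4*, donor of intron 17, chr5:6862747-6862770, minus strand: agacgaatttggGTagattttctt
In S5 the altered base is the last of an intron of 102 bases, and *SGS3* has 5 exons and 625 codons. In S7 it is the first base of an intron of 150 bases, and *DCL4* has 25 exons and 1702 codons. Gene-level counts include reads from any spliced form, so these counts do not show which splice forms were made.

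The 24 libraries held 25.8 to 73.4 M counts, so that 3 counts, the level taken as the floor of detection, stood for 0.0414 to 0.116 CPM (counts per M counts of the library, scaled by TMM). The members ranged from 64 to 21992 counts per library, far above that floor. *TT19* itself was at 0.936 to 1.54 CPM in *tt19-8* and 125 to 133 CPM in Col-0, and between 1.84 and 11.6 CPM in the suppressor lines. The libraries of a genotype always differed beyond counting noise, and S2 replicate 3 stood farthest from its group, at 25.7 times the chance value from either of the others. The summed level of 8 low-oxygen marker genes was 8000 CPM in *tt19-8* replicate 3 against 1740 to 1800 CPM in the other *tt19-8* libraries, 6400 against 2670 to 2680 CPM in S8 and 3850 against 1710 to 1800 CPM in S2. Replicate 3 was lower than its group in S7 (1340 against 2780 to 3070 CPM) and in Col-0 (1080 against 1700 to 1790 CPM). It was 5570 to 5920 CPM in all libraries of S4 and 939 to 960 CPM in those of S1. None of those 8 genes was at 0 in any genotype. The summed level of 3 seed storage genes was 425 to 4880 CPM in the suppressor lines, 953 to 1070 CPM in *tt19-8* and 44.4 to 119 CPM in Col-0. The summed markers of leaf and of root were present in every library, at 101 to 389 CPM and 609 to 2270 CPM. The leaf sum came mostly from *RBCS1A*, and the leaf marker *CAB3* had 0 counts in S4 replicate 3 and S5 replicate 2. The flower genes *AP1*, *AP3* and *AG* summed to at most 0.691 CPM. In whole seedlings, fewer cells of a type and less RNA per cell cannot be told apart.

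Over the 8 genotypes, the mean level per transcript length was 132 TPM (counts divided by exon length and scaled to the same sum in every library) for *AGO1*, by far the highest of the members. It was 43.7 TPM for *DRB4*, 17.7 for *DCL2*, 17.0 for *SGS3*, 15.1 for *AGO2*, 10.9 for *DCL4*, 10.4 for *RDR6*, 8.98 for *RDR1* and 6.42 for *AGO7*. *SDE5* was lowest, at 2.46 TPM. All other levels given here are in CPM, which are not corrected for length and are compared only within a gene. The spread of genotype means was widest for the genes mutated in S5 and S8: the highest mean was 3.01 times the lowest for *SGS3* and 2.96 times for *RDR6*. It was 1.17 times for *DRB4*, the steadiest member, 1.3 times for *AGO2* and 1.33 times for *AGO1*. Within genotypes the median coefficient of variation ran from 3.70% for *AGO2* to 14.1% for *SDE5*, the least expressed.

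In *tt19-8* compared with Col-0, which sets the insertion line against the wild type before any suppressor lesion is added, none of the 10 members was differentially expressed (DE). DE here means an adjusted p under 0.05 in edgeR's quasi-likelihood test, with Benjamini-Hochberg adjustment over all genes tested, whatever the fold change. By this criterion 13.6% of all genes tested were DE in that comparison. They included all 3 seed storage genes and 3 of the 8 low-oxygen genes, all higher in *tt19-8*. The low-oxygen sum was high in *tt19-8* replicate 3 only, at 8000 CPM. The other *tt19-8* libraries held 1740 to 1800 CPM, and those of Col-0 1080 to 1790 CPM. The part of such differences in the comparison was not tested. None of the members had an unadjusted p under 0.05, and DESeq2 called none. Their log2 fold changes lay between -0.25 for *SDE5* and 0.10 for *DCL4*, and the lowest adjusted p was 0.449. Member transcripts in the suppressor lines are therefore given against *tt19-8*, and against Col-0 beside it. All 6 lines were compared with the same *tt19-8* and Col-0 libraries, so the comparisons are not independent of each other.

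*RDR6*, the polymerase that makes the second strand, was the member with the largest change. In S8 it stood at 10.2, 10.1 and 10.9 CPM, against 32.1, 29.0 and 24.7 CPM in *tt19-8* and 29.8, 30.9 and 29.7 CPM in Col-0. S8 thus had 0.364 times the level of *tt19-8*, with no overlap between the groups (log2 fold change -1.46 ± 0.12, SE; adjusted p 4.47e-08), and the difference from Col-0 was -1.53 ± 0.12 (adjusted p 3.11e-08). In S2, the line whose stop codon is in the last coding exon, *RDR6* was at 19.5, 18.9 and 19.7 CPM. These values were below every *tt19-8* and Col-0 library, and *RDR6* was 0.677 times the *tt19-8* level (-0.56 ± 0.11; adjusted p 0.00158) and differed from Col-0 by -0.64 ± 0.11 (adjusted p 0.000333). In S1 it was at 25.3, 23.4 and 24.0 CPM, a range that overlapped that of *tt19-8* because of *tt19-8* replicate 3. The S1 difference from *tt19-8* was not past the threshold (-0.24 ± 0.11; adjusted p 0.111) and that from Col-0 was (-0.31 ± 0.11; adjusted p 0.0344). Without *tt19-8* replicate 3, the library high in low-oxygen markers, the difference of S1 from *tt19-8* was -0.333, with an adjusted p of 0.039, and without all replicate 3 libraries it was -0.325, with an adjusted p of 0.00619. In S4, the missense line, *RDR6* was at 28.5, 27.6 and 29.2 CPM, inside the range of *tt19-8* (-0.01 ± 0.11; adjusted p 0.967).

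**Figure D1:**
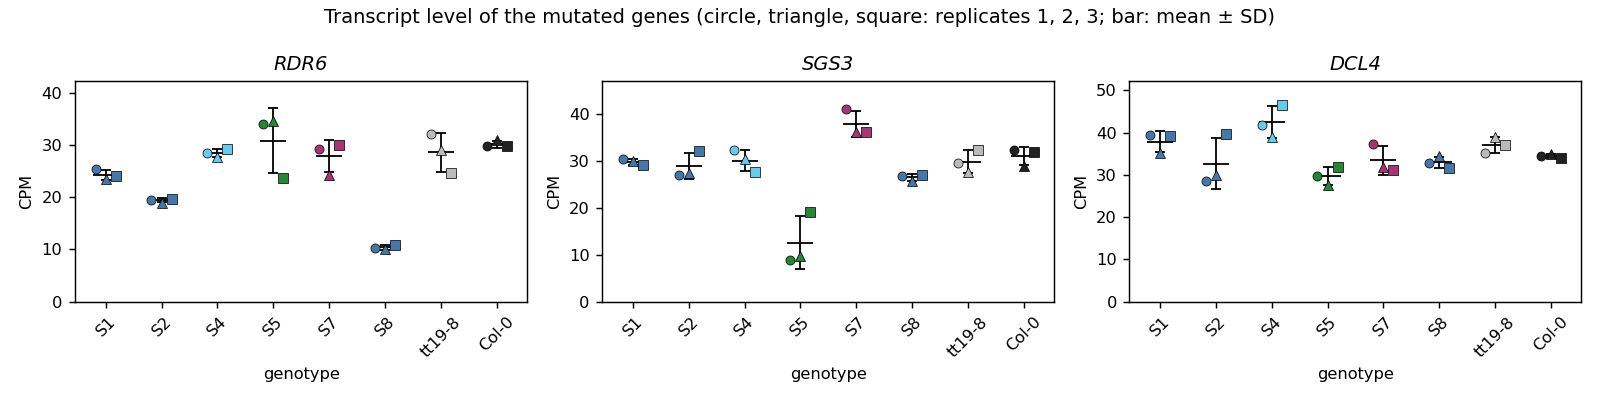
Levels of *RDR6*, *SGS3* and *DCL4* in CPM (vertical axes) in the 3 libraries of each genotype (horizontal axes), with the mean and SD as bars. The S8 libraries of *RDR6* lie at 10.1 to 10.9 CPM and the S5 libraries of *SGS3* at 8.90 to 19.2 CPM, below all libraries of *tt19-8* and Col-0, whereas the S7 libraries of *DCL4* lie at 31.2 to 37.4 CPM.

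The *RDR6* lines were also compared with each other, which asks whether lesions in one gene left the same amount of its transcript. Of the 10 members, 1 was DE between S8 and S1 (28.0% of all genes), 3 between S8 and S2 (10.7%) and 2 between S2 and S1 (30.8%). *RDR6* was lower in S8 than in S1 by -1.22 ± 0.12 (adjusted p 2.97e-07), although their stop codons are 18 bases apart. It was lower in S8 than in S2 by -0.89 ± 0.12 (adjusted p 4.40e-05), and both differences were past the threshold under each of the 12 alternatives tried. It was lower in S2 than in S1 by -0.32 ± 0.11 (adjusted p 0.0339), a call that was lost when any 1 of their 6 libraries was left out, with adjusted p from 0.05 to 0.109. Against the missense line, *RDR6* was lower in S8 than in S4 (-1.45 ± 0.12; adjusted p 2.79e-08) and higher in S4 when set against S2 (0.55 ± 0.11; adjusted p 0.00111), whereas S4 and S1 differed by 0.23, which was not past the threshold (adjusted p 0.109). The S4 and S1 libraries did not overlap, and their difference passed the threshold with only the 6 libraries compared (adjusted p 0.00127). The order of *RDR6* levels did not follow the place of the stop codon along the gene. In order of genotype means from high to low, *RDR6* ran S5 (30.8 CPM), Col-0 (30.1), *tt19-8* (28.6), S4 (28.4), S7 (27.8), S1 (24.2), S2 (19.4) and S8 (10.4), and of the neighbours in this order only S1 and S2, and S2 and S8, differed past the threshold.

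**Figure D2:**
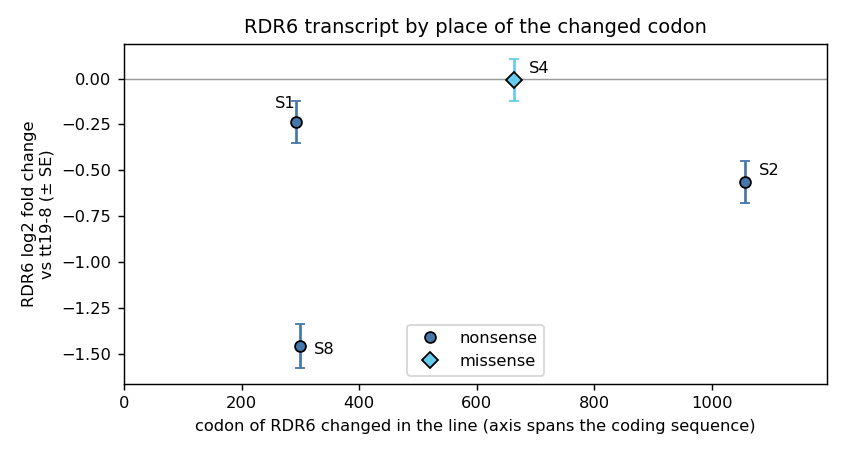
*RDR6* log2 fold change against *tt19-8* with its SE (vertical axis) by the codon altered in each line (horizontal axis, codon number in the coding sequence). The early stop codons of S1 and S8, at codons 293 and 299, go with changes of -0.24 and -1.46, and the late one of S2, at codon 1055, with -0.56.

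*SGS3*, the partner that binds the RDR6 template, was lowest in S5, the line with the lesion in it. S5 had 8.90, 9.80 and 19.2 CPM, against 29.6, 27.6 and 32.3 CPM in *tt19-8* and 32.3, 29.0 and 32.0 CPM in Col-0. All S5 values were below those of both other groups, but S5 replicate 3 stood well above the other S5 libraries. The change was -1.24 ± 0.18 against *tt19-8* (adjusted p 4.53e-05) and -1.30 ± 0.18 against Col-0 (adjusted p 2.03e-05). Without S5 replicate 3 it was -1.68 against *tt19-8*. That library also differed from S5 replicates 1 and 2 in *RDR6* (23.6 against 34.1 and 34.6 CPM), in *RDR1* (23.8 against 15.1 and 14.2 CPM) and in the seed storage sum (755 against 1540 and 1670 CPM), and the part of such differences in the S5 results was not tested. In the other lines *SGS3* was not DE against *tt19-8*, and its level lay between 25.7 CPM in S8 and 41.1 CPM in S7.

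*SGS3* in S7 reached 41.1, 36.3 and 36.3 CPM, above every library of *tt19-8* and Col-0. The test against *tt19-8* did not pass the threshold (0.34 ± 0.17; adjusted p 0.117), but it did with only the 6 libraries compared and without all replicate 3 libraries (0.437, adjusted p 0.000213). Between lines, *SGS3* was higher in S7 than in S5 (1.59 ± 0.18; adjusted p 4.05e-07) and in S8 than in S5 (1.07 ± 0.18; adjusted p 0.000392). It was lower in S8 than in S7 (-0.52 ± 0.17; adjusted p 0.0201). The last call was lost without S7 replicate 1 and without S8 replicate 2, where the highest adjusted p was 0.0768.

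*SDE5*, the least expressed member, was DE in no line against *tt19-8*. Its lowest values were those of S2, with 1.69, 2.15 and 1.98 CPM against 3.17, 2.65 and 2.30 CPM in *tt19-8* and 2.69, 3.6 and 3.37 CPM in Col-0. The S2 values lay below all others of both groups, but only the comparison with Col-0 passed the threshold (-0.72 ± 0.20; adjusted p 0.0117), while against *tt19-8* the difference was -0.48 ± 0.21 (adjusted p 0.113). Tested directly, *SDE5* was lower in S2 than in S1 (-0.83 ± 0.20; adjusted p 0.00355), a call kept under all 12 alternatives. It was higher in S8 than in S2 (0.65 ± 0.21; adjusted p 0.0471) and in S4 when set against S2 (0.57 ± 0.20; adjusted p 0.0392), and each of these calls was lost under 8 of 12 alternatives. Of the *SDE5* gene 1.80% overlaps a neighbour on the opposite strand, as does 4.50% of *RDR1*.

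*RDR1*, the other polymerase, was also DE in no line against *tt19-8* or Col-0. Its highest values were in S7, with 24.8, 27.5 and 24.7 CPM against 17.8, 21.6 and 20.1 CPM in *tt19-8* and 20.2, 20.2 and 24.1 CPM in Col-0. The groups did not overlap, and the difference from *tt19-8* was 0.37 ± 0.17 (adjusted p 0.0858), which passed the threshold without all replicate 3 libraries (0.404, adjusted p 0.00452). In S5 *RDR1* was at 15.1, 14.2 and 23.8 CPM. S2 had 15.8, 14.9 and 23.3 CPM, so that in both lines replicate 3 stood above the range of *tt19-8* and the other libraries below it. Without all replicate 3 libraries *RDR1* was lower than in *tt19-8* in S5 (-0.424, adjusted p 0.00531) and in S2 (-0.363, adjusted p 0.017). The difference of S7 from S5 was past the threshold (0.54 ± 0.17; adjusted p 0.0123) but not without S5 replicate 1 or S5 replicate 2 (highest adjusted p 0.0778). *RDR1* is known to respond to salicylate, and the summed level of the salicylate markers *PR1*, *PR2* and *PR5* was at most 0.726 CPM in any library.

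*DCL4*, which dices the RDR6 product, was not DE in S7, the line with the lesion at its splice donor. S7 had 37.4, 31.9 and 31.2 CPM, against 35.1, 39.0 and 37.1 CPM in *tt19-8* and 34.6, 34.9 and 34.1 CPM in Col-0. S7 replicates 2 and 3 lay below every *tt19-8* library and replicate 1 among them, and the differences were -0.15 ± 0.10 against *tt19-8* (adjusted p 0.273) and -0.04 ± 0.10 against Col-0 (adjusted p 0.757). The value against *tt19-8* stayed between -0.24 and -0.10 under the 12 alternatives. *DCL4* was instead lowest in S5, the *SGS3* line, at 29.8, 27.5 and 31.8 CPM, below every library of *tt19-8* (-0.32 ± 0.10; adjusted p 0.0276). This call was lost without S5 replicate 1 or 2 and without *tt19-8* replicate 2 or 3, with adjusted p up to 0.124, and against Col-0 the S5 difference was not past the threshold (-0.21 ± 0.10; adjusted p 0.132). In S4 *DCL4* was at 41.9, 39.0 and 46.5 CPM, which was DE against Col-0 (0.30 ± 0.10; adjusted p 0.0222) but not against *tt19-8* (0.19 ± 0.10; adjusted p 0.191). In S2 it was at 28.6, 29.9 and 39.6 CPM, and without S2 replicate 3, the library farthest from its group, it was lower than in *tt19-8* (-0.342, adjusted p 0.012), which it was not with that library (-0.18 ± 0.10; adjusted p 0.233).

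*DRB4*, the partner of DCL4, varied least. It lay between 30.2 and 37.3 CPM over the 24 libraries and was DE in no line against *tt19-8* or Col-0, with log2 fold changes from -0.06 in S4 to 0.17 in S5 against *tt19-8*. Between lines it was lower in S7 than in S5 (-0.21 ± 0.07; adjusted p 0.0127), in S4 than in S2 (-0.20 ± 0.07; adjusted p 0.0264) and in S4 than in S1 (-0.17 ± 0.07; adjusted p 0.048). These calls were lost under 2, 7 and 10 of 12 alternatives, in that order.

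*DCL2*, the dicer that can use the same substrate, was lower in S1, S5 and S8 and with all libraries in the fit it was in no line DE and higher than in *tt19-8*. In S8 it was at 38.7, 39.8 and 40.1 CPM, in S5 at 42.1, 39.2 and 44.4 CPM and in S1 at 48.6, 42.7 and 48.4 CPM. The *tt19-8* libraries held 54.6, 61.1 and 61.3 CPM and the Col-0 libraries 54.7, 57.9 and 55.2 CPM, all above those of the 3 lines. The changes against *tt19-8* were -0.58 ± 0.10 in S8 (adjusted p 0.000156), -0.49 ± 0.10 in S5 (adjusted p 0.000858) and -0.34 ± 0.10 in S1 (adjusted p 0.00852). Against Col-0 they were -0.50 ± 0.10 in S8, -0.42 ± 0.10 in S5 and -0.26 ± 0.10 in S1, also past the threshold. The S1 call was lost without S1 replicate 2 (adjusted p 0.0542), and the others held under every alternative. S2, at 46.3, 48.0 and 53.4 CPM, lay below *tt19-8* as well without passing the threshold (-0.26 ± 0.10; adjusted p 0.06), and it did pass without S2 replicate 3 and without all replicate 3 libraries (-0.295, adjusted p 0.0193).

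S4 and S7 did not share this. *DCL2* stood at 64.9, 68.0 and 70.2 CPM in S4 and at 78.2, 59.1 and 55.9 CPM in S7, where replicate 1 was far above the others. S4 was above every library of *tt19-8* (0.20 ± 0.10; adjusted p 0.155) and of Col-0 (0.28 ± 0.10; adjusted p 0.024), and only the comparison with Col-0 passed. In S7 the difference from *tt19-8* was 0.12 ± 0.10 (adjusted p 0.322). It was -0.0441 without S7 replicate 1, and 0.248 without all replicate 3 libraries, where it passed the threshold (adjusted p 0.0328). Tested between lines, *DCL2* was lower in S8 than in S4 (-0.78 ± 0.10; adjusted p 3.56e-06) and than in S7 (-0.70 ± 0.10; adjusted p 7.38e-06), and higher in S7 than in S5 (0.62 ± 0.10; adjusted p 2.46e-05), under every alternative. *DCL2* was also higher in S4 than in S1 (0.54 ± 0.10; adjusted p 0.000125) and than in S2 (0.46 ± 0.10; adjusted p 0.00123). It was lower in S8 than in S2 by -0.32 ± 0.10 (adjusted p 0.0369), a call lost under 8 of 12 alternatives. Of the *DCL2* gene 10.2% overlaps AT3G03305 on the same strand, and reads from the shared part cannot be assigned to either from these counts.

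**Figure D3:**
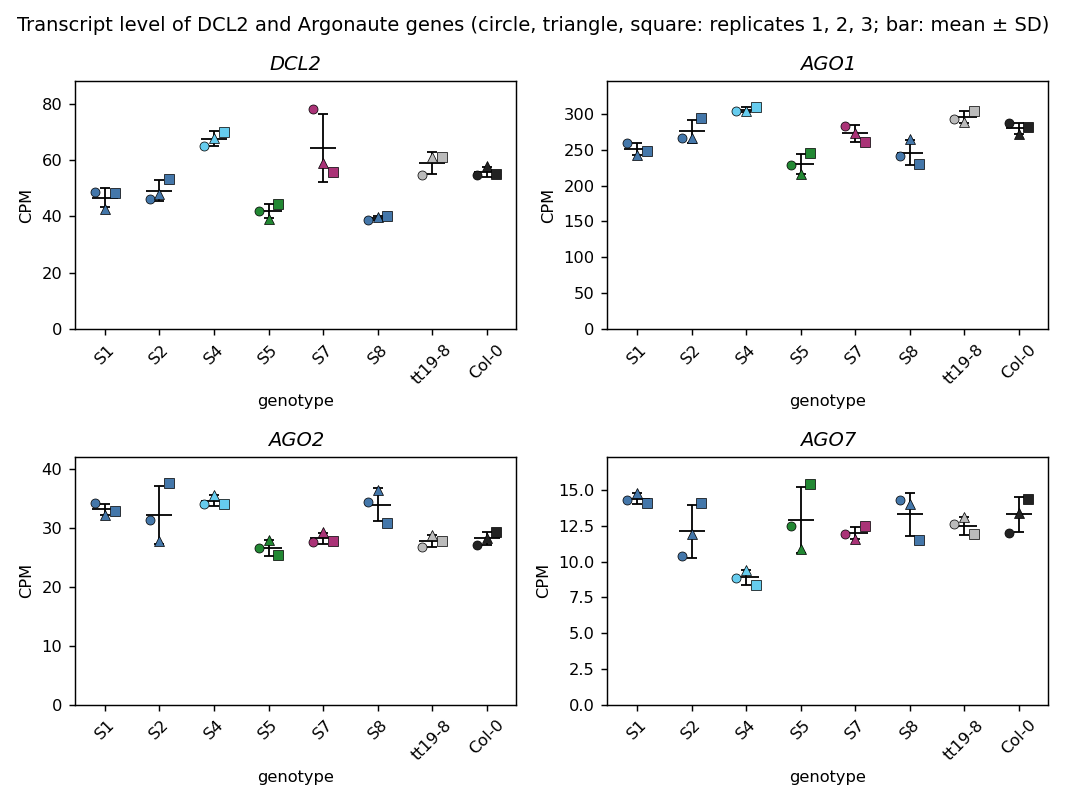
Levels of *DCL2*, *AGO1*, *AGO2* and *AGO7* in CPM (vertical axes) in the 3 libraries of each genotype (horizontal axes), with the mean and SD as bars. *DCL2* and *AGO1* lie lower in S1, S5 and S8 than in *tt19-8* and Col-0, *AGO2* lies higher in S1, S4 and S8, and *AGO7* is lowest in S4, at 8.39 to 9.42 CPM.

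*AGO1*, the main effector of microRNAs and trans-acting siRNAs, was lower in the same 3 lines as *DCL2*. It was at 229, 217 and 245 CPM in S5, at 242, 265 and 230 CPM in S8 and at 260, 243 and 249 CPM in S1. The *tt19-8* libraries held 293, 289 and 305 CPM and the Col-0 libraries 287, 272 and 282 CPM, so that the 3 lines lay below both. The changes were small: -0.36 ± 0.07 in S5 (adjusted p 0.000462), -0.27 ± 0.07 in S8 (adjusted p 0.00423) and -0.24 ± 0.07 in S1 (adjusted p 0.00751) against *tt19-8*. Against Col-0 they were -0.28 ± 0.07 in S5 (adjusted p 0.00303) and -0.19 ± 0.07 in S8 (adjusted p 0.033), while S1 was not past the threshold (-0.16 ± 0.07; adjusted p 0.0594). With only the 6 libraries of the genotypes compared, the adjusted p of S8 against *tt19-8* was 0.0564. *AGO1* in S4, at 304 to 310 CPM, and in S2, at 266 to 295 CPM, was not DE, nor was it in S7, at 261 to 284 CPM. Between lines it was higher in S4 than in S1 (0.29 ± 0.07; adjusted p 0.00133), lower in S8 than in S4 (-0.32 ± 0.07; adjusted p 0.000762) and higher in S7 than in S5 (0.24 ± 0.07; adjusted p 0.00431). S7 lay below every *tt19-8* library without passing the threshold (-0.12 ± 0.07; adjusted p 0.173), and neither S8 compared with S7 (-0.15 ± 0.07; adjusted p 0.0694) nor S7 compared with S1 (0.12 ± 0.07; adjusted p 0.132) passed it.

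*AGO7*, the partner of miR390, was changed in S4 alone among the lines tested against *tt19-8*. S4 had 8.87, 9.42 and 8.39 CPM, against 12.6, 13.1 and 11.9 CPM in *tt19-8* and 12, 13.4 and 14.4 CPM in Col-0. No library outside S4 was as low, the next being one of S2 at 10.4 CPM. The change was -0.49 ± 0.12 against *tt19-8* (adjusted p 0.0074) and -0.58 ± 0.12 against Col-0 (adjusted p 0.000749). The difference was itself tested between lines. *AGO7* was lower in S4 than in S1 (-0.69 ± 0.12; adjusted p 0.000115) and than in S2 (-0.45 ± 0.12; adjusted p 0.00882; 0.0531 with only the 6 libraries compared), and higher in S8 than in S4 (0.58 ± 0.12; adjusted p 0.00108). S4 is also the line in which all libraries were high in low-oxygen markers, with a sum of 5570 to 5920 CPM against 1740 to 8000 CPM in *tt19-8*, and 1 of these 8 genes was DE against *tt19-8*. Without all replicate 3 libraries, which leaves *tt19-8* at 1740 to 1800 CPM of these markers, the *AGO7* change in S4 was -0.49 (adjusted p 0.00124). S4 stayed at 5570 to 5920 CPM in that fit, so the fit does not make the groups alike in these markers. The part of low-oxygen markers in this result was not tested.

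*AGO2*, the antiviral Argonaute, was, with all libraries in the fit, the only member DE and higher against *tt19-8* in any line. It was at 34.0, 35.6 and 34.1 CPM in S4, at 34.4, 36.4 and 30.8 CPM in S8 and at 34.2, 32.2 and 32.8 CPM in S1. The *tt19-8* libraries held 26.7, 28.7 and 27.7 CPM and the Col-0 libraries 27.1, 28.2 and 29.2 CPM, all below those of the 3 lines. Against *tt19-8* the changes were 0.32 ± 0.08 in S4 (adjusted p 0.0116), 0.29 ± 0.09 in S8 (adjusted p 0.016) and 0.26 ± 0.08 in S1 (adjusted p 0.0242), and against Col-0 they were 0.30, 0.27 and 0.23 and past the threshold as well. The calls lay near the threshold. That of S1 was lost in 4 of 12 alternatives (highest adjusted p 0.0841), that of S4 in 2 (0.0577) and that of S8 in 3 (0.0803). All of them were lost without *tt19-8* replicate 1, while over the alternatives the changes stayed at 0.228 to 0.281 in S1, 0.292 to 0.347 in S4 and 0.235 to 0.353 in S8. S2, at 31.3, 27.8 and 37.6 CPM, spanned the range of the lines and of *tt19-8* (0.22 ± 0.09; adjusted p 0.0772). Its difference was 0.315 without S2 replicate 2, which passed the threshold (adjusted p 0.0127), and 0.0928 without S2 replicate 3 (adjusted p 0.439). In S5, at 25.3 to 28.0 CPM, and S7, at 27.5 to 29.3 CPM, *AGO2* overlapped *tt19-8*, and it was higher in S8 than in S5 (0.35 ± 0.09; adjusted p 0.00867) and than in S7 (0.26 ± 0.09; adjusted p 0.0177). The S8 to S7 call was lost under 3 of 12 alternatives. *AGO2* has a closely related tandem neighbour, *AGO3*, and the treatment of reads that map to both is not stated.

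Counted by line against *tt19-8*, 4 of the 10 members were DE in S8 (3 lower and 1 higher), where 25.6% of all genes tested were DE. There were 4 in S5 (all lower; 24.7% of all genes), 3 in S1 (2 lower and 1 higher; 34.0%), 2 in S4 (1 lower and 1 higher; 18.7%) and 1 in S2 (lower; 19.1%). In S7 none was DE, where 37.3% of all genes were; 1 member had an unadjusted p under 0.05 and DESeq2 called none, while 3 passed without all replicate 3 libraries and 2 with only the 6 libraries compared. Outside the mutated gene itself, the counts were 3 in S8, S5 and S1, 2 in S4 and 0 in S2 and S7. The shares lie near the background in several lines, so they do not set the members apart from other genes. Shares of all genes DE are given for the fit with all libraries, not for the alternatives. The median log2 fold change of the members lay between -0.12 in S2 and 0.07 in S1, and that of all genes between -0.02 and 0.00.

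**Figure D4:**
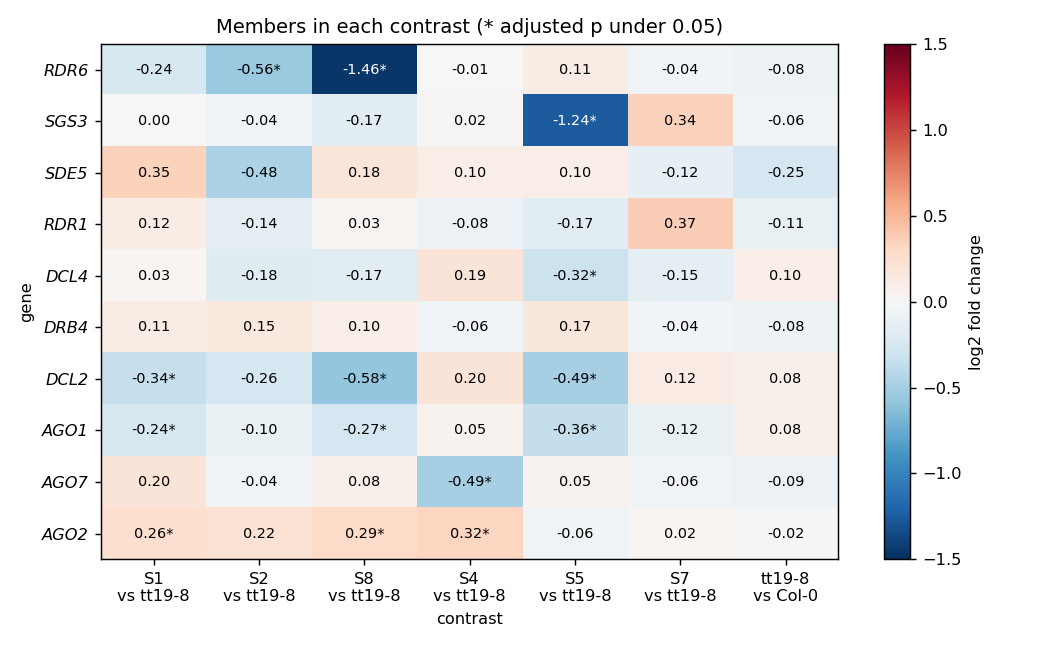
Log2 fold change of each member (rows) in each comparison (columns), with an asterisk where the adjusted p is under 0.05. The lesion-bearing gene is darkest in S8 (*RDR6*, -1.46) and S5 (*SGS3*, -1.24), the S7 column holds no asterisk, and neither does *tt19-8* against Col-0.

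Against Col-0 the counts of DE members were 4 in S8 (29.2% of all genes), 3 in S5 (25.2%), 3 in S1 (36.4%), 4 in S4 (42.9%), 2 in S2 (27.3%) and 0 in S7 (42.7%). In S7 against Col-0, 1 member had an unadjusted p under 0.05 and DESeq2 called none. Between lines, 5 members were DE between S7 and S5 (45.2% of all genes), 3 between S8 and S5 (14.9%) and 4 between S8 and S7 (39.9%). Among the *RDR6* lines, 4 were DE between S4 and S1 (42.2%), 6 between S4 and S2 (28.6%) and 5 between S8 and S4 (35.6%). *RDR6* itself was lower in S8 than in S5 (-1.56 ± 0.12; adjusted p 7.29e-08) and than in S7 (-1.42 ± 0.12; adjusted p 1.60e-08). *DCL4* in S4 exceeded that in S2 (0.38 ± 0.10; adjusted p 0.00858) and lower in S8 than in S4 (-0.36 ± 0.10; adjusted p 0.00875), though the first of these was lost under 4 of 12 alternatives and the second without S4 replicate 3.

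In the lines with less *RDR6* transcript, *SGS3* was not past the threshold against *tt19-8*, with changes of -0.17 ± 0.17 in S8 and -0.04 ± 0.17 in S2, nor were *DCL4*, *DRB4*, *AGO7*, *RDR1* or *SDE5*, apart from *DCL4* and *RDR1* in S2 without all replicate 3 libraries. In S5, with less *SGS3*, *RDR6* was at 34.1, 34.6 and 23.6 CPM, and its difference from *tt19-8* was 0.11 ± 0.11 (adjusted p 0.529). Without S5 replicate 3 the difference was 0.266, with an adjusted p of 0.0438. *DCL2* and *AGO1* were DE and lower in S8 and S1, both with stop codons in *RDR6*, and in S5, with the lesion in *SGS3*. With all libraries in the fit, neither gene was DE and lower in S4 or S7, nor in S2, the other line with a stop codon in *RDR6*. In S2 the changes were -0.10 for *AGO1* (adjusted p 0.319) and -0.26 for *DCL2* (adjusted p 0.06). Without all replicate 3 libraries *DCL2* passed the threshold in S2 (-0.295, adjusted p 0.0193). Low-oxygen markers moved in some of these lines too: against *tt19-8*, all 8 were DE and lower in S1, 7 in S5, 4 in S7 and none in S8, and the summed levels were 939 to 960 CPM in S1, 1200 to 1660 CPM in S5, 1340 to 3070 CPM in S7 and 2670 to 6400 CPM in S8 against 1740 to 8000 CPM in *tt19-8*. All 3 seed storage genes were DE and higher in S1. Without all replicate 3 libraries, which removes the *tt19-8* library at 8000 CPM, *AGO1* changed by -0.209 in S1, -0.383 in S5 and -0.199 in S8 and *DCL2* by -0.342, -0.507 and -0.561, all past the threshold. The marker sums still differed in that fit, at 939 to 959 CPM in S1, 1200 to 1250 CPM in S5 and 2670 to 2680 CPM in S8. In *tt19-8* they were then 1740 to 1800 CPM. The part of these markers in the changes was not tested.

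Across the 24 libraries, *AGO1* and *DCL2* varied together (Pearson r = 0.835 of log2(CPM + 1); 0.546 after removing genotype means), as did *DCL4* and *DCL2* (0.634 and 0.770) and *DCL4* and *AGO1* (0.686 and 0.709). *RDR6* and *SGS3* were not alike across libraries (-0.138), and within genotypes their correlation was -0.713, to which S5 replicate 3 belongs. These correlations are descriptions, since the libraries of a genotype share their source. Among the 15663 genes that averaged 5 CPM or more, the gene with the pattern most like *DCL2* was AT2G48100 (r = 0.955 over the 24 libraries), that most like *AGO1* was *HGL1* (0.937) and that most like *DCL4* was AT3G63340 (0.914). For *SGS3* it was *SNL6* (0.900), for *AGO7* the metacaspase gene *MC9* (0.864), for *AGO2* the identifier AT2G06950.1 (0.828), for *DRB4* the actin depolymerising factor gene *ADF6* (0.820), for *RDR1* *RUS1* (0.812), for *RDR6* the boron channel gene *NIP5;1* (0.793) and for *SDE5* the callose synthase gene *CalS7* (0.764).

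The genes that surround this machinery were examined as a list of 54, of which 48 were tested: microRNA processing, other Argonautes, the heterochromatic siRNA branch, double-stranded RNA binding proteins, SGS3-like proteins, RNA decay and microRNA precursors. The precursors *MIR168A*, *MIR168B*, *MIR403*, *MIR162B*, *MIR390A* and *MIR390B* were not tested, with at most 0.323 CPM in any library, so these counts do not measure the microRNAs that target *AGO1* and *AGO2*. Of the 48, the number DE against *tt19-8* was 19 in S7 (14 higher and 5 lower), 15 in S1 (10 and 5), 11 in S5 (1 and 10), 9 in S4 (7 and 2), 6 in S8 (3 and 3) and 3 in S2 (2 and 1). As shares of the list these were 39.6% in S7 (37.3% of all genes), 31.2% in S1 (34.0%), 22.9% in S5 (24.7%), 18.8% in S4 (18.7%), 12.5% in S8 (25.6%) and 6.25% in S2 (19.1%), none far above the share of all genes. In *tt19-8* compared with Col-0, 1 was DE (2.08%, against 13.6% of all genes), the nuclear exonuclease gene *XRN2*, which was higher (0.42 ± 0.10; adjusted p 0.0069), a call lost without *tt19-8* replicate 3.

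*AGO3*, the neighbour of *AGO2*, showed in 4 lines the largest rise among the DE genes of the list that averaged 1 CPM or more. It was at 12.5, 11.7 and 24.7 CPM in S8, at 18.3, 13.1 and 15.2 CPM in S1 and at 13.2, 13.8 and 9.42 CPM in S5. S2 had 8.59, 10.4 and 21.7 CPM. The *tt19-8* libraries held 5.29, 4.65 and 7.26 CPM and the Col-0 libraries 3.61, 2.89 and 7.59 CPM, so none of these lines overlapped either. The changes against *tt19-8* were 1.51 ± 0.35 in S8 (adjusted p 0.00292), 1.44 ± 0.35 in S1 (adjusted p 0.00303), 1.25 ± 0.35 in S2 (adjusted p 0.015) and 1.08 ± 0.35 in S5 (adjusted p 0.028). The first pair held under all alternatives, and those of S2 and S5 were each lost under 4 of 12 (highest adjusted p 0.124 and 0.101). Without S2 replicate 3 the S2 change was 0.737.

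**Figure D5:**
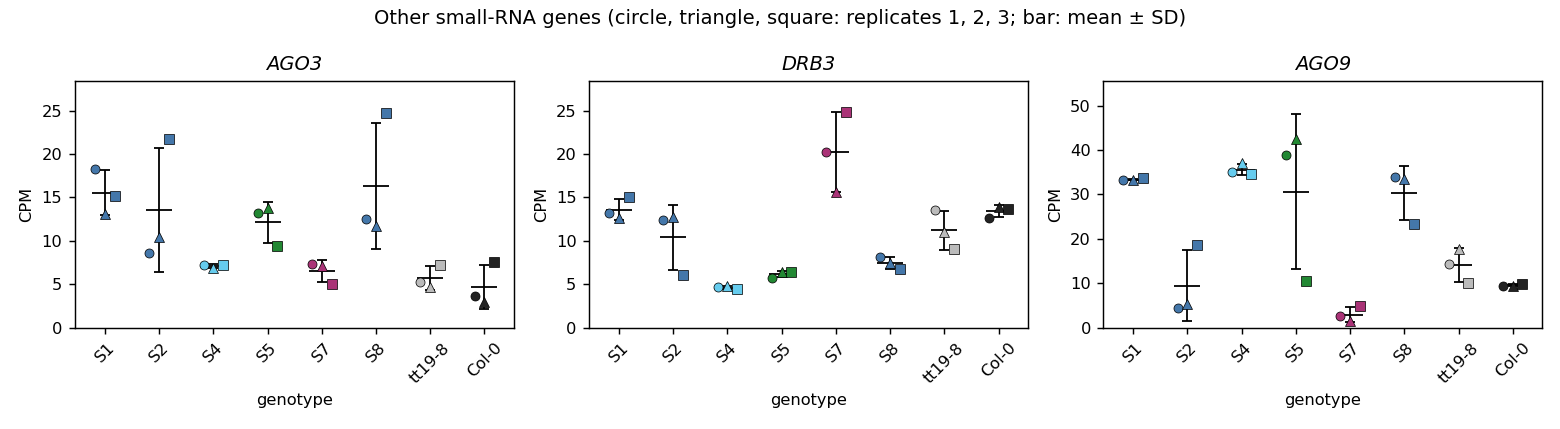
Levels of *AGO3*, *DRB3* and *AGO9* in CPM (vertical axes) in the 3 libraries of each genotype (horizontal axes), with the mean and SD as bars. *AGO3* lies higher in S1, S2, S5 and S8 than in *tt19-8*, *DRB3* is lowest in S4 and highest in S7, and *AGO9* is lowest in S7, at 1.41 to 4.77 CPM.

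*DRB3*, a relative of *DRB4*, moved in both directions. It was lower in S4 (4.62, 4.78 and 4.41 CPM; -1.28 ± 0.21; adjusted p 0.000207) and in S5 (5.72, 6.45 and 6.36 CPM; -0.86 ± 0.21; adjusted p 0.0048), and higher in S7 (20.2, 15.6 and 24.8 CPM; 0.86 ± 0.20; adjusted p 0.00207), against 13.5, 11 and 9.08 CPM in *tt19-8*. None of these groups overlapped that of *tt19-8*, and these calls held under all alternatives. *DRB3* was also lower in S8, at 8.10, 7.47 and 6.72 CPM (-0.59 ± 0.21; adjusted p 0.0411), a call given without its results under the alternatives. *AGO9*, an Argonaute of the heterochromatic branch best known from ovules, was lower in S7, at 2.56, 1.41 and 4.77 CPM against 14.4, 17.7 and 10.1 CPM in *tt19-8* (-2.19 ± 0.50; adjusted p 0.00159). It was higher in S4, at 35.1, 37.1 and 34.6 CPM (1.34 ± 0.45; adjusted p 0.0409), a call lost under 7 of 12 alternatives, and in S1, at 33.3, 33.2 and 33.6 CPM (1.24 ± 0.45; adjusted p 0.0362). For the S1 call no results under the alternatives are given here. *FDM1*, an SGS3-like gene, was lower in S1, at 29.2, 28.9 and 28.3 CPM against 31.4, 37.3 and 53.9 CPM in *tt19-8* (-0.50 ± 0.14; adjusted p 0.0071), and this was lost without *tt19-8* replicate 3 and without all replicate 3 libraries. The precursor *MIR162A*, whose microRNA targets *DCL1*, was lower in S8, at 3.01, 5.09 and 2.74 CPM against 7.24, 6.79 and 7.74 CPM in *tt19-8* (-1.01 ± 0.24; adjusted p 0.00315). It was also lower in S7 (-0.66 ± 0.23; adjusted p 0.0299) and S5 (-0.64 ± 0.23; adjusted p 0.0483), and in the other lines its change lay between -0.59 and -0.38. The S7 and S5 calls of *MIR162A* are given without their results under the alternatives. *DCL1*, given here as the target, was DE and lower than in *tt19-8* in 2 lines and DE and higher in none. The *DCL1* mean was 67.0 CPM in S8, 64.2 CPM in S7 and 58.5 CPM in S5, against 78.8 CPM in *tt19-8*. In Col-0 the mean was 72.7 CPM.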

How the data were processed

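RNA was sequenced from 8 genotypes with 3 libraries each. The authors checked reads with FastQC 0.11.5, used HISAT2 for alignment to TAIR10, and deposited whole-number read counts per gene for each library. The strand setting of the counting and its treatment of reads that map to several genes are not given in the sources used here. Counts were read as deposited. After filterByExpr by genotype had taken out weakly counted genes, libraries were scaled by TMM, and all 24 libraries were fitted with 1 mean per genotype in edgeR 4.0.16 (quasi-likelihood test) under R 4.3.3. The Benjamini-Hochberg adjustment ran over all genes tested. Each SE was taken as the absolute log2 fold change over the root of the F statistic. CPM are counts scaled to the TMM-adjusted library size. TPM are counts divided by exon length and scaled to the same sum in every library, without the TMM factor. Exon lengths are from the RefSeq annotation, to which 28932 of the 33331 identifiers matched. The members and lists were chosen with earlier results of these data known. Of the wider list, the text names in each comparison the largest rise and the largest fall among those DE that averaged 1 CPM or more, and any gene DE in one direction against *tt19-8* in at least 5 lines. *DCL1* is given outside this rule, beside *MIR162A*. For likeness, log2(CPM + 1) was correlated over the libraries.

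Alternatives were RLE scaling, DESeq2 1.42.0, no filter, only the 6 libraries compared, the replicate number as a block, each library left out in turn, and no replicate 3 libraries. The scripts were tested on simulated data. Replicate numbers come from the labels, which do not say that they mark a shared culture or day. Deviations from the genotype means correlated between same-numbered libraries of S2 and *tt19-8* at 0.118, 0.102 and 0.229, which counted as pairing. The values given are nonetheless from the fit without a block, and the block changed no call of a member in S2 against *tt19-8*. All 15 pairs of lines were tested and 9 are described with their count of DE members. For S7 compared with S1 only *AGO1* is given. Among the pairs left out, 7 of the 10 members were DE between S5 and S4, where 41.5% of all genes were. Floors cover counting error only.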

Additional observations from a re-analysis of the deposited data

Results flagged for a closer look

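The lines with nonsense changes in *RDR6* differed from each other in members of the machinery, each difference being tested directly between the lines with edgeR's quasi-likelihood test. *RDR6* differed by -1.22 in S8 compared with S1 (adjusted p 2.97e-07), by -0.89 in S8 compared with S2 (adjusted p 4.40e-05) and by -0.32 in S2 compared with S1 (adjusted p 0.0339). *SDE5* differed by -0.83 in S2 compared with S1 (adjusted p 0.00355) and by 0.65 in S8 compared with S2 (adjusted p 0.0471). *DCL2* differed by -0.32 in S8 compared with S2 (adjusted p 0.0369). *SDE5* had the lowest counts of the members, from 64 per library.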

How the results depend on the processing

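Of the 14 calls of members against *tt19-8*, 8 were kept under each of the 12 alternatives and 6 were lost under at least 1, namely *AGO2* in S1, S4 and S8, *DCL4* in S5, *DCL2* in S1 and *AGO1* in S8. All 14 were kept with DESeq2 and without all replicate 3 libraries, and 12 with only the 6 libraries compared, while 11 values became called under some alternative. The direction turned for *DCL2* in S7 without S7 replicate 1 (-0.0441; leaving out 1 library gave -0.0441 to 0.219) and for *RDR6* in S4, a value near 0, with RLE scaling (0.000162), no filter (0.00164), only the 6 libraries (6.43e-05), DESeq2 (2.09e-05), and without S4 replicate 2 (0.0119), *tt19-8* replicate 1 (0.082) or *tt19-8* replicate 2 (0.00239; leaving out 1 library gave -0.104 to 0.082). Without all replicate 3 libraries the count of DE members was 4 in S2 and 3 in S7, and that of the wider list 8 in S2, 20 in S4, 11 in S8 and 6 in *tt19-8* against Col-0. With only the 6 libraries, 2 members were DE in S7 and 2 in S8, and 0 of the wider list in S2. DESeq2 called 5 of the wider list in S2 and 2 in *tt19-8* against Col-0. Leaving out 1 library in turn gave 1 to 3 members in S2 and 1 to 2 in S4. The wider list then gave 3 to 7 for S8, 16 to 21 for S7, 8 to 11 for S5, 4 to 13 for S4, 2 to 5 for S2, 9 to 14 for S1 and 0 to 4 for *tt19-8* against Col-0. The share of all genes DE under each alternative is not given here, so these counts do not set the listed genes apart from others. The causes were not tested. Members near 64 counts limit the precision for *SDE5*.

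Fitted with a replicate block, S8 and S5 had 4 DE members each, S1 had 3, S4 had 2, S2 had 1 and S7 had 0, and all 14 calls against *tt19-8* were kept. The block removed the calls of *AGO9* in S4 and of *DRB4* between S4 and S1, and gave 20 of the wider list in S7 and 7 in S8. The share of all genes DE with the block is not given here. In the comparisons of *tt19-8* with Col-0 and of S1, S4, S5, S7 and S8 with *tt19-8*, same-numbered libraries did not all deviate together beyond a correlation of 0.1, and pairs of lines were not checked for this.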

Other observations

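Other genes of the wider list are given here because they were DE in several lines; they were chosen after their values were seen and fall outside the naming rule, which counts lines against *tt19-8*. *CLSY1*, which acts with RNA polymerase IV in the heterochromatic siRNA branch, was at 53.4, 55.4 and 54.1 CPM in S4, against 30.8, 32.5 and 37.2 CPM in *tt19-8* (log2 fold change 0.70, edgeR adjusted p 1.06e-05), and was also higher in S2 (0.50) and S7 (0.40). Against Col-0, *CLSY1*, *RDR3* and *XRN2* were each DE and higher in 5 lines. The changes in those lines were 0.24 to 0.73 for *CLSY1*, 0.70 to 1.81 for *RDR3* and 0.26 to 0.64 for *XRN2*. These comparisons all used the same Col-0 libraries. For *XRN2* the insertion line itself exceeded the wild type, by 0.42, a call lost without *tt19-8* replicate 3. Tested against *tt19-8*, *XRN2* was DE and higher in 0 lines and lower in 1, with changes from -0.314 to 0.216. By the same test *CLSY1* was DE and higher in 3 lines and *RDR3* in 2. *HEN1*, the methyltransferase that protects small RNA ends, was higher than in *tt19-8* in S1 (0.48), S7 (0.51) and S8 (0.34). Set against Col-0, *HEN1* was DE and higher in 2 lines and lower in 1, with changes from -0.299 to 0.299. *UPF1*, the helicase of nonsense-mediated decay, was lower than in *tt19-8* in S1 (-0.23), S5 (-0.32), S7 (-0.21) and S8 (-0.22). It stood at 239 to 273 CPM in S8 against 291 to 304 CPM in *tt19-8* and 269 to 298 CPM in Col-0. Set against Col-0, *UPF1* was DE and lower in 1 line, with changes over the lines from -0.229 to 0.110.

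In S7, *DCL3*, which makes heterochromatic siRNAs, was higher by 0.66, and the polymerase subunit genes *NRPD2* and *NRPE1* by 0.47 and 0.41. In S5, the *SGS3* line, the SGS3-like genes *FDM1*, *IDN2* and *FDM2* were lower than in the insertion line, by -0.67, -0.62 and -0.56. Against the wild type, the S5 differences were smaller, at -0.291, -0.322 and -0.215, and none was past the threshold. The *FDM1* libraries of the insertion line ranged from 31.4 to 53.9 CPM. *RDR3* was higher in S1 (1.36) and S4 (1.06), and *RDR5* was higher in S1 (0.82) and S4 (0.69) and lower in S7 (-0.81). *RDR3* and *RDR5* are neighbouring related genes, and reads shared between them leave these values uncertain.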
